A study of Homo sapiens with 6 samples.

Results

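The collagen chain genes are the protein-coding genes whose symbol is COL, a number, A and a second number. In this RNA-seq data set 43 of 31369 gene rows met that rule. COL10A1, a chain of the short-chain networks, had no row. A filter on low counts was passed by 28 of the 43 genes, and a difference between the groups was tested for these 28. The other 15 reached at most 11 counts in any sample.

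Collagens are extracellular proteins in which chains wind around each other in a triple helix. Fibrillar chains form the banded fibrils of connective tissue, whereas type IV chains form the network of basement membranes, the sheet on which tubule epithelium sits. FACIT chains attach to the surface of fibrils, and transmembrane chains stay anchored in the cell membrane. Other chains form short-chain networks, beaded filaments or the anchoring fibrils that tie basement membrane to stroma. In the kidney, tubule cells lay down basement membrane collagen, and interstitial fibrosis is known for an excess of fibrillar collagen.

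The cells were HK-2, an immortalised line of human kidney proximal tubule epithelium. The group NC held 3 samples whose genotype entry is WT, and the group OE held 3 samples whose genotype entry is *PPM1K* overexpress, from cells given a *PPM1K* plasmid with Lipofectamine. *PPM1K* encodes a mitochondrial protein phosphatase that acts on branched-chain amino acid breakdown. All 6 samples carried the entries chronic kidney disease as treatment and day 10 as time. What the NC cells were given is not stated in the sources used here, and the promoter of the plasmid is not given either. The sample titles name shControl and shPPM1K, which goes against the genotype entries. *PPM1K* had 37, 19 and 53 counts in the NC samples and 3294, 3531 and 2919 counts in the OE samples, a log2 fold change (OE over NC) of 6.39 (SE 0.13). The direction of the groups therefore follows the genotype entries. The study's text calls its replicates biological, but the sources used here do not state that the samples of a group came from separate cultures, so the p-values measure the spread between these samples, part of which may be technical.

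The libraries held 34635770 to 39850802 counts in genes. NC replicate 2 stood apart, with 26478 genes that had a count against 22094 to 22913 in the other 5 libraries. It also had 41 collagen chains with a count against 34 to 37 elsewhere, but the number with at least 10 counts was 26 to 28 in every library. Epithelial markers were present: 6 of 7 reached an FPKM of 1 in at least 1 sample and their summed FPKM was 798.79 to 892.58 in NC and 676.97 to 734.17 in OE. FPKM is the number of fragments scaled to transcript length and library size. CDH1 (E-cadherin) was the low member, at a mean FPKM of 0.313 in NC and 0.15 in OE. Of 12 proximal tubule markers, 2 (CDH6 and MIOX) reached an FPKM of 1, and 5 had under 10 counts in every library or no row, among them LRP2 (megalin) with at most 1 count and CUBN (cubilin) with at most 6. The summed FPKM of these 12 was 18.12 to 19.07 in NC and 11.32 to 12.33 in OE. The members went both ways, with 2 higher and 3 lower of 7 tested. By the same edgeR test at an adjusted p below 0.05, 24.9% of all tested genes were higher and 23.7% were lower. CDH6, a kidney cadherin, fell from an FPKM of 13.36, 12.84 and 12.94 to 3.74, 3.67 and 3.8, while MIOX, the inositol oxygenase of proximal tubule, rose from a mean of 4.79 to 7.46 (adjusted p 1.6e-05).

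Fibroblast markers were mostly rare, and 2 of the 4 tested were lower in OE, against 23.7% of all tested genes. Of 8 markers, PDGFRA and FAP had at most 1 count, PDGFRB at most 4 and DCN at most 9 in any library. The 2 that reached an FPKM of 1 were TAGLN, a smooth muscle and myofibroblast actin-binding protein, and LUM. Both fell in OE, TAGLN from a mean FPKM of 13.8 to 3.35. The other tested markers did not pass: THY1, a fibroblast surface protein, stood at 0.10 on the log2 scale (adjusted p 0.81) and ACTA2, smooth muscle actin, at 0.64 (adjusted p 0.17). The summed FPKM of the list, most of it TAGLN, was 14.95 to 16.5 in NC and 4.1 to 4.45 in OE. Its part in the collagen result was not tested. Endothelial markers summed to an FPKM of 0.57 to 0.72 in NC and 0.79 to 0.92 in OE. Of their 5 genes, 3 were tested and 2 were higher in OE, against 24.9% of all tested genes. Leukocyte markers summed to 0.12 to 0.15 in NC and 0.09 to 0.1 in OE, with none of the 5 genes at 10 counts. In bulk RNA, fewer cells with a transcript and less of it per cell cannot be told apart.

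Collagen chains took a smaller share of the OE libraries. They held 0.437%, 0.413% and 0.381% of all counts in the NC samples and 0.329%, 0.333% and 0.350% in the OE samples. Their summed FPKM was 343.71, 311.84 and 301.62 in NC and 269.04, 276.44 and 282.3 in OE. The NC samples averaged 319 ± 22.0 and the OE samples 276 ± 6.64 (SD, n = 3 each), and the groups did not overlap. With 3 samples against 3, an exact two-sided permutation test cannot go below p = 0.1, so single sums were left as values. A few chains made up most of the total: the 6 highest chains of each sample held 83.1% to 85.3% of its collagen FPKM.

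Ordered by mean FPKM in NC, the leading chains were COL4A2, COL4A1, COL7A1, COL6A2, COL18A1 and COL6A1. COL4A2 held 21.1% of collagen FPKM in NC and 21.3% in OE. COL4A1 went from 17.0% and rank 2 to 13.6% and rank 4. COL6A2 and COL6A1, the beaded filament chains, went from 12.7% to 15.4% and from 7.15% to 8.94%. COL11A1 went from 3.15% and rank 7 to 1.09% and rank 12. COL7A1 held 15.6% and 16.9%. In NC the samples of COL4A1 and COL7A1 overlapped in FPKM, whereas in OE every COL4A1 sample lay below every COL7A1 and COL6A2 sample.

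**Figure D1:**
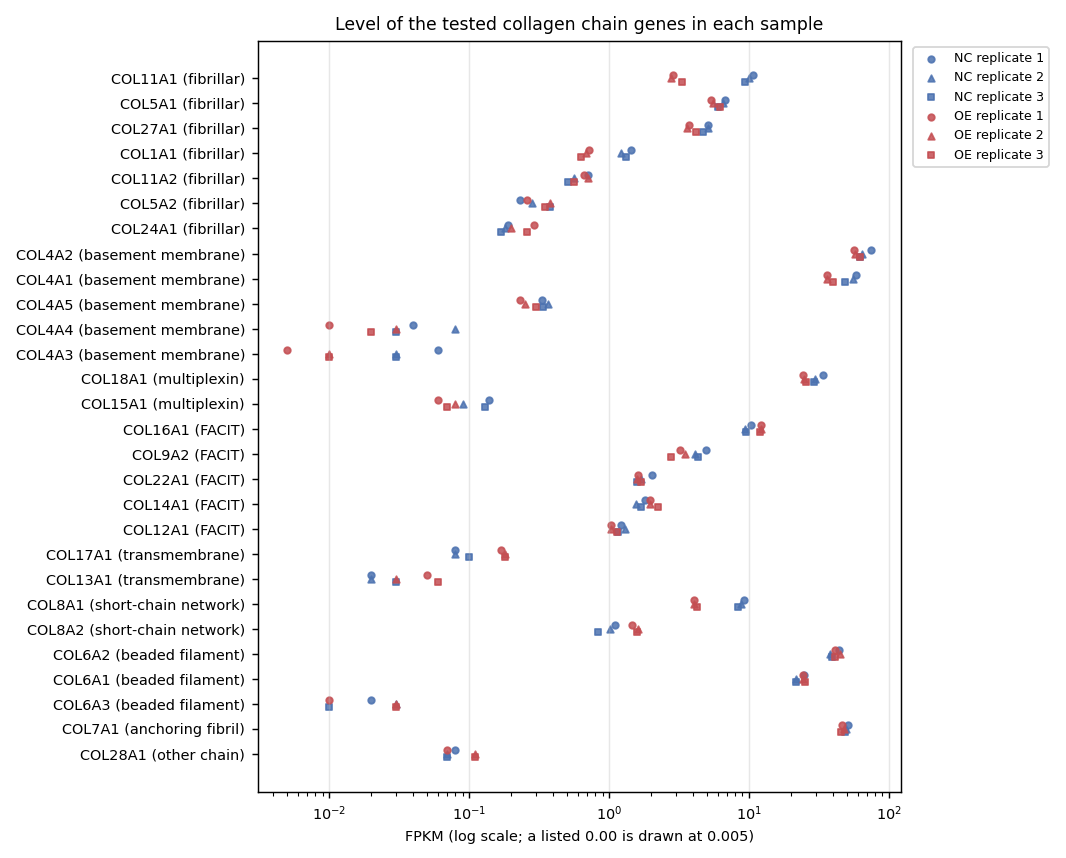
FPKM of the 28 tested collagen chain genes in each of the 6 samples on a log axis, grouped by class, with NC in blue and OE in red. COL11A1, COL1A1, COL4A1 and COL8A1 show OE points left of all NC points, while COL6A1 and COL6A2 lie together.

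By class, basement membrane chains summed to an FPKM of 122 ± 10.8 in NC and of 96.5 ± 5.38 in OE (SD, n = 3 each, as for the other classes), or 38.2% and 35.0% of collagen FPKM. Fibrillar chains summed to 25.16, 23.98 and 22.6 in NC and to 13.92, 13.95 and 15.57 in OE, and their share went from 7.50% to 5.25%. Short-chain network chains summed to 10.32, 9.74 and 9.19 against 5.54, 5.67 and 5.82. These 3 classes did not overlap between the groups, and all OE sums were the lower ones. The same held for multiplexin chains, at 33.86, 29.62 and 29.41 in NC and 24.51, 24.74 and 25.65 in OE. Beaded filament chains, in contrast, summed to 63.5 ± 4.91 in NC and 67.2 ± 2.00 in OE with overlapping samples, and their share of the total was 19.9% and 24.4%. FACIT chains summed to 19.0 ± 1.26 and 20.1 ± 0.19, also with overlap. The anchoring fibril chain COL7A1 stood at 49.5 ± 1.38 and 46.7 ± 1.24, lower in OE without overlap. The transmembrane chains were rare, at a summed FPKM of 0.117 in NC and 0.227 in OE, higher in OE without overlap.

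**Figure D2:**
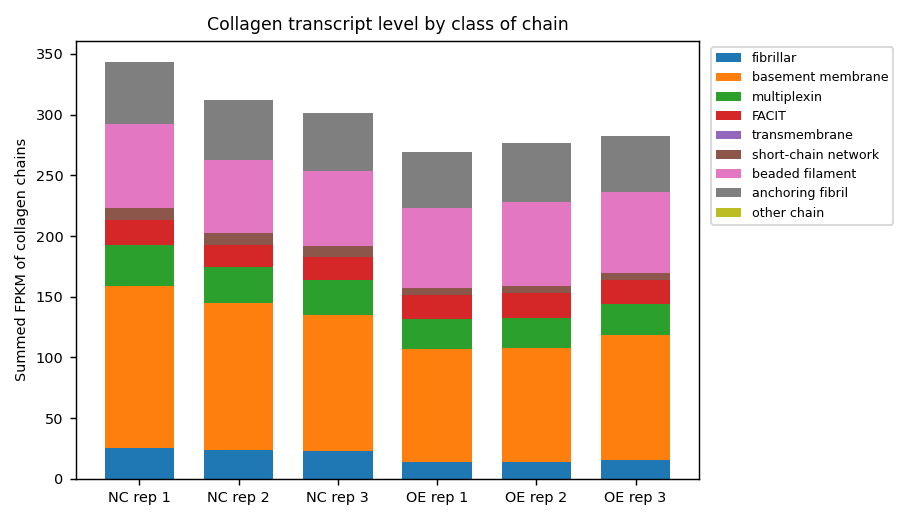
Summed FPKM of each collagen class in each of the 6 samples, drawn as stacked bars from 0. The NC bars reach 301.62 to 343.71 and the OE bars 269.04 to 282.3, with thinner basement membrane and fibrillar segments in OE.

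Of the 28 tested chains, 13 (46.4%) were lower in OE and 5 (17.9%) were higher at an adjusted p below 0.05 (edgeR quasi-likelihood test, Benjamini-Hochberg over 15878 genes). Of all tested genes, 23.7% were lower and 24.9% were higher by the same rule. With a change of more than 2-fold added, 4 chains (14.3%) were lower against 3.79% of all genes, and 2 (7.14%) were higher against 1.73%. CPM values are counts scaled to library size with the same TMM factors as the edgeR test. In CPM the groups did not overlap for 13 chains in the lower direction (46.4%, against 27.1% of all genes). In the higher direction the number was 5 (17.9%, against 28.2% of all genes). These chains are not the same sets as those past the threshold. COL5A1, COL4A4 and COL13A1 passed it with overlapping groups, and COL15A1, COL7A1 and COL24A1 were separated without passing it. The groups overlapped for 10 chains, and 55.3% of all genes showed no overlap, lower and higher together. The median log2 fold change was −0.17 over the 28 chains and −0.0032 over all tested genes. Leaving out each of the 6 samples in turn, 8 of the 13 lower chains and 4 of the 5 higher chains stayed past the threshold in every fit. With limma on log2(FPKM + 1) and log2(FPKM + 0.1), scales that compress low values, 7 and 7 chains were lower and 3 and 2 higher. Both fits lost COL4A2, COL4A3, COL4A4, COL4A5, COL5A1 and COL12A1 among the lower chains and COL13A1 and COL14A1 among the higher, and the second also lost COL17A1. COL4A2, the most abundant chain, had a log2 fold change of −0.20 in both limma fits against −0.22 in the main test. Its adjusted p by limma was 0.16 and 0.15. The rare COL4A3 went from −2.43 to −0.047 and −0.39. Without NC replicate 2, the library that stood apart, 11 chains were lower and 4 higher, and 4 were lower by more than 2-fold, with COL1A1 in place of COL4A4. The 2 chains higher by more than 2-fold, COL17A1 and COL13A1, became 0 without NC replicate 1 and 1 without NC replicate 2, OE replicate 1 or OE replicate 3. These are counts over the chains that passed the filter on low counts. A rare chain can pass that filter through the group where it is higher, and the 2-fold counts include such chains. COL4A3 had 27, 16 and 14 counts in NC and 1, 6 and 4 in OE. COL13A1 had 8, 7 and 14 counts in NC and 25, 14 and 26 in OE.

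**Figure D3:**
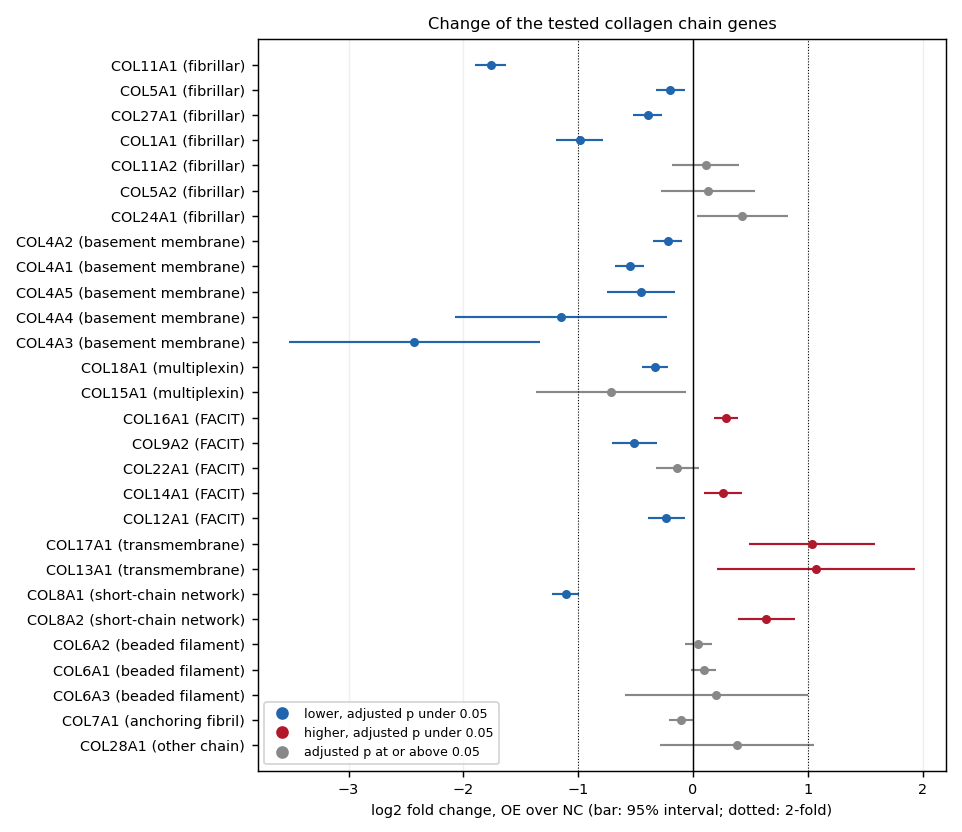
Log2 fold change (OE over NC) of the 28 tested collagen chain genes with its 95% interval, grouped by class; blue marks chains lower and red chains higher at an adjusted p below 0.05. All 5 basement membrane chains lie left of 0, with COL4A3 at −2.43, and both transmembrane chains lie right of it.

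In the basement membrane class all 5 tested type IV chains were lower in the main test, against 23.7% of all tested genes. Their median log2 fold change was −0.55. The calls of COL4A2, COL4A4 and COL4A5 were each lost when certain single samples were left out, and both limma fits kept only COL4A1. COL4A1 (ENSG00000187498.16, chr13:110148963-110307157, minus strand) and COL4A2 (ENSG00000134871.19, chr13:110305812-110513209, plus strand; hg38) encode the chains of the ubiquitous basement membrane network. The FPKM of COL4A1 was 57.91, 55.53 and 49.03 in NC and 36.36, 35.96 and 40.12 in OE. The lowest NC sample lay above the highest OE sample, and the log2 fold change was −0.55 (SE 0.06, adjusted p 1.8e-07). COL4A2, its partner, had an FPKM of 75.11, 64.84 and 62.63 in NC and 56.37, 57.53 and 62.23 in OE. Here NC replicate 3 and OE replicate 3 were nearly level, and the log2 fold change was −0.22 (SE 0.06, adjusted p 0.0048). Without NC replicate 1, COL4A2 stood at −0.14 with an adjusted p of 0.071. The genes start back to back, so the 2 chains share the stretch between their start sites.

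The sequence between them is shown because both genes read away from it while their changes were unequal. In RefSeq (GRCh38.p14) the start sites lie at position 110307157 for COL4A1 and 110307284 for COL4A2 on chromosome 13, with 126 bases between them. The first 100 of these bases, chr13:110307158-110307257 on the plus strand, hold no exon annotated in GENCODE and are 78% G and C. They also lie inside the annotated COL4A2 gene, which has an earlier start. Capitals mark CCAAT, which binds NF-Y, and GGGCGG, the GC box bound by SP1-type factors.
COL4A1-COL4A2 interval: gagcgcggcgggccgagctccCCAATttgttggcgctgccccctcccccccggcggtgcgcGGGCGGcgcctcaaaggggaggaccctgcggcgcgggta

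The ratio of COL4A1 to COL4A2 in FPKM put the unequal change in 1 number per sample. It was 0.771, 0.856 and 0.783 in NC and 0.645, 0.625 and 0.645 in OE, so every OE sample lay below every NC sample. The annotations of the genes overlap through an alternative COL4A2 transcript, and the kit was stranded. Whether strand was used in the counting is not stated in the sources used here, so reads in a stretch shared by overlapping genes are uncertain. This applies to 16 of the 28 tested chains, 9 of which overlap another gene on their own strand, while 12 overlap none.

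COL4A3, COL4A4 and COL4A5, the other tested type IV chains, belong to the network of mature glomerular and tubular basement membranes affected in Alport syndrome. All were at low level. COL4A5 (chrX:108439838-108697545, plus strand) had 148, 170 and 158 counts in NC and 108, 127 and 135 in OE. Its groups did not overlap in CPM, and the log2 fold change was −0.45 (SE 0.14, adjusted p 0.012). It missed the threshold without NC replicate 2 (adjusted p 0.054) and without OE replicate 1 (adjusted p 0.061).

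COL4A3 (ENSG00000169031.21, chr2:227164624-227314792, plus strand) had 27, 16 and 14 counts in NC and 1, 6 and 4 in OE. All OE samples were below all NC samples, with a log2 fold change of −2.43 (SE 0.52, 95% interval −3.52 to −1.34, adjusted p 0.00063). Values without single samples ranged from −2.91 to −2.00, but limma on log2(FPKM + 1) and log2(FPKM + 0.1) gave adjusted p of 0.096 and 0.085. COL4A4 (ENSG00000081052.14, chr2:227002714-227164453, minus strand), its neighbour with 418 bases between the RefSeq start sites, had 17, 37 and 13 counts in NC and 6, 15 and 11 in OE. The groups overlapped, and the 37 counts came from NC replicate 2, the library that stood apart. The log2 fold change of COL4A4 was −1.15 (SE 0.44, adjusted p 0.037). It was −0.58 without NC replicate 2 (adjusted p 0.37) and −0.88 without OE replicate 1 (adjusted p 0.16), and its adjusted p was 0.057 without OE replicate 3. COL4A6, the head-to-head partner of COL4A5, was not tested, with at most 8 counts.

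The multiplexins are basement membrane zone collagens whose ends release anti-angiogenic fragments. COL18A1 (chr21:45405165-45513720, plus strand), the source of endostatin, had an FPKM of 33.72, 29.53 and 29.28 in NC and 24.45, 24.66 and 25.58 in OE. The groups did not overlap, and the log2 fold change was −0.33 (SE 0.05, adjusted p 3.2e-05). COL15A1 was rare, with 34, 23 and 34 counts in NC and 17, 23 and 19 in OE, a log2 fold change of −0.71 and an adjusted p of 0.066. Without NC replicate 2 that value was −0.87 with an adjusted p of 0.048.

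Among fibrillar chains, 4 of 7 tested (57.1%) fell, none rose and 3 did not pass the test. Over all tested genes, 23.7% were lower and 24.9% higher. The median log2 fold change of the fibrillar chains was −0.20. COL11A1 (ENSG00000060718.22, chr1:102876467-103108872, minus strand) encodes a chain of type XI collagen, a regulator of fibril diameter. Its FPKM was 10.67, 10.04 and 9.4 in NC and 2.89, 2.79 and 3.33 in OE. The OE samples were well below the NC samples, with a log2 fold change of −1.76 (SE 0.07, 95% interval −1.90 to −1.63, adjusted p 9.7e-15). Values without single samples were −1.83 to −1.71. COL11A1 overlaps SOD2P1, a pseudogene on the same strand.

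The 250 bases upstream of the RefSeq start of COL11A1, chr1:103108523-103108772 on the minus strand (GRCh38.p14), are given because, among the chains with a mean FPKM above 1 in NC, COL11A1 fell most. They are 68.8% G and C and hold no exon annotated in GENCODE, although they lie inside the annotated gene, since a transcript there starts farther upstream. Capitals mark CCAAT and GGGCGG or their reverse complements.
COL11A1: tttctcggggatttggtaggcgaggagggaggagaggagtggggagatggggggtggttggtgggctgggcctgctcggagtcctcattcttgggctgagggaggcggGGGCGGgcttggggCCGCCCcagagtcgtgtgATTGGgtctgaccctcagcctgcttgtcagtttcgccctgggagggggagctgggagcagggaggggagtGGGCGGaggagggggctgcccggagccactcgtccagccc

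COL1A1 (ENSG00000108821.14, chr17:50184101-50201632, minus strand) encodes the main chain of type I collagen, the bulk fibril of scar tissue. It had 483, 428 and 466 counts in NC and 259, 262 and 219 in OE. The groups were far apart, with a log2 fold change of −0.99 (SE 0.10, adjusted p 5.7e-08), just short of 2-fold. COL1A2, which encodes the partner chain in heterotrimeric type I collagen, had at most 5 counts in any sample, and COL3A1, which forms type III collagen, had at most 1.

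COL27A1 (chr9:114155537-114312511, plus strand), a chain of thin cartilage-type fibrils, had an FPKM of 5.11, 5.13 and 4.74 in NC and 3.74, 3.62 and 4.19 in OE. It fell without overlap, by a log2 fold change of −0.40 (SE 0.06, adjusted p 1.2e-05). COL5A1 (chr9:134641803-134844843, plus strand), a type V chain that helps to start fibrils, had 6.8, 6.54 and 6.05 in NC and 5.35, 5.56 and 6.25 in OE. OE replicate 3 lay above NC replicate 3 in FPKM, and the log2 fold change of COL5A1 was −0.20 (SE 0.06, adjusted p 0.0097). The call was lost without NC replicate 1 (adjusted p 0.074) and without OE replicate 1 (adjusted p 0.071).

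The other fibrillar chains were at lower level and did not pass the test. COL11A2, the second type XI chain, had a log2 fold change of 0.11 (95% interval −0.18 to 0.40, adjusted p 0.55). COL5A2, the second type V chain, stood at 0.13 (95% interval −0.28 to 0.54, adjusted p 0.61). The intervals of both leave room for a change in either direction. COL24A1, a fibrillar chain of developing bone, had 69, 68 and 64 counts in NC and 113, 80 and 95 in OE. Its groups did not overlap, at a log2 fold change of 0.43 (SE 0.19, adjusted p 0.065), and the value was 0.58 with an adjusted p of 0.020 without OE replicate 2. The ratio of COL5A1 to COL11A1 in FPKM was 0.637, 0.651 and 0.644 in NC and 1.85, 1.99 and 1.88 in OE: COL11A1 was the more abundant chain in every NC sample and COL5A1 in every OE sample.

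The short-chain network chains, which build the hexagonal sheets seen under endothelia, moved in opposite directions. COL8A1 (ENSG00000144810.16, chr3:99638475-99799226, plus strand) had an FPKM of 9.22, 8.72 and 8.35 in NC and 4.07, 4.05 and 4.24 in OE. The samples of each group were close together and the groups were far apart, with a log2 fold change of −1.11 (SE 0.05, adjusted p 8.8e-13). COL8A2 (ENSG00000171812.13, chr1:36095239-36125222, minus strand), the less abundant partner, had 1.1, 1.02 and 0.84 in NC and 1.47, 1.62 and 1.58 in OE. All its OE samples were above the NC samples, with a log2 fold change of 0.64 (SE 0.12, adjusted p 0.00016). The ratio of COL8A1 to COL8A2 in FPKM was 8.38, 8.55 and 9.94 in NC and 2.77, 2.50 and 2.68 in OE.

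**Figure D4:**
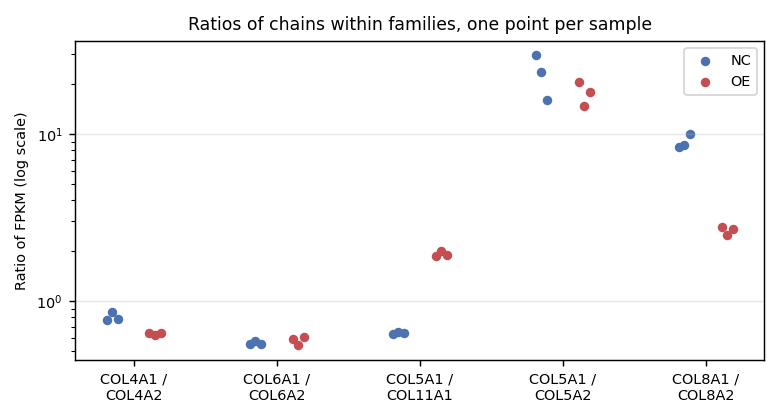
Ratio of FPKM between paired collagen chains in each of the 6 samples, NC in blue and OE in red. The ratios COL4A1/COL4A2 and COL8A1/COL8A2 are lower in every OE sample, COL5A1/COL11A1 is higher in every OE sample, and COL6A1/COL6A2 and COL5A1/COL5A2 overlap.

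The upstream window of COL8A2, chr1:36125223-36125472 on the minus strand (GRCh38.p14), is shown because this chain rose while its partner fell. It is 82% G and C and holds 7 matches to GGGCGG or its reverse complement, overlapping matches included, marked in capitals. The promoter of COL8A1 is not shown here.
COL8A2: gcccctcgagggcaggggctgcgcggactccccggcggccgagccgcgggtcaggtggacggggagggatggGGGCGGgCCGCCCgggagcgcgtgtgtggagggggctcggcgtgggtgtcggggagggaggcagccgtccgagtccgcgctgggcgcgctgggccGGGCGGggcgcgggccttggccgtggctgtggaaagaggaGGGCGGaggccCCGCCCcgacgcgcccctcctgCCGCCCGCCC

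Over all tested genes, 23.7% were lower and 24.9% higher. FACIT chains were mixed: 2 of 5 tested fell, 2 rose and 1 did not pass the test. COL16A1 (chr1:31652263-31704319, minus strand), a fibril-associated chain also found near epithelia, was the most abundant of them. Its FPKM was 10.37, 9.45 and 9.58 in NC and 12.17, 12.13 and 12.02 in OE. Every OE sample was higher, with a log2 fold change of 0.29 (SE 0.05, adjusted p 7.7e-05). COL14A1, a chain that binds fibril surfaces, also rose, from an FPKM of 1.82, 1.57 and 1.7 to 1.96, 1.97 and 2.26 (log2 fold change 0.26, SE 0.08, adjusted p 0.010). By limma on log2(FPKM + 1) and log2(FPKM + 0.1), its adjusted p was 0.10 and 0.089.

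COL9A2, a type IX chain of cartilage fibrils, fell. Its FPKM was 4.98, 4.12 and 4.31 in NC and 3.21, 3.52 and 2.79 in OE, without overlap (log2 fold change −0.51, SE 0.09, adjusted p 0.00011). COL12A1, a chain of dense connective tissue, had 1.22, 1.31 and 1.17 in NC and 1.03, 1.03 and 1.14 in OE, a log2 fold change of −0.23 (SE 0.08, adjusted p 0.016). That call was lost without NC replicate 2 (adjusted p 0.090), without OE replicate 1 (0.057) and without OE replicate 2 (0.068). COL22A1, a chain of tissue junctions, had a log2 fold change of −0.14 (95% interval −0.32 to 0.05, adjusted p 0.22) with overlapping groups.

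Both tested transmembrane chains were higher in OE, at low counts, against 24.9% of all tested genes. COL17A1 (ENSG00000065618.21, chr10:104031286-104085880, minus strand) encodes the hemidesmosome protein BP180, which ties epithelial cells to basement membrane. It had 20, 22 and 27 counts in NC and 48, 54 and 49 in OE. The groups did not overlap, with a log2 fold change of 1.04 (SE 0.26, 95% interval 0.49 to 1.58, adjusted p 0.0026), and values without single samples were 0.96 to 1.16. With limma on log2(FPKM + 0.1) its adjusted p was 0.052. COL13A1 (chr10:69801880-69964275, plus strand), a chain of cell-matrix and neuromuscular junctions, had 8, 7 and 14 counts in NC and 25, 14 and 26 in OE. NC replicate 3 and OE replicate 2 had the same count, and the log2 fold change was 1.07 (SE 0.41, adjusted p 0.037). The COL13A1 call was lost without NC replicate 1 (adjusted p 0.12), NC replicate 2 (0.14), OE replicate 1 (0.12) or OE replicate 3 (0.13), and DESeq2 gave an adjusted p of 0.13.

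The upstream window of COL17A1, chr10:104085881-104086130 on the minus strand (GRCh38.p14), is printed as the contrast to the windows above. It is 40.4% G and C, holds no annotated exon, and has 1 match each to TATAAA and to the reverse complement of CCAAT, in capitals.
COL17A1: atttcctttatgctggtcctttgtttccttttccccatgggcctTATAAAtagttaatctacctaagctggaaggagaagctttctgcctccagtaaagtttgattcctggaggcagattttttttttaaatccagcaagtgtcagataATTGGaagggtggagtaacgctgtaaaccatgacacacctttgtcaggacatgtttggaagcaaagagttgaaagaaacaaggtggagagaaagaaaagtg

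Across the tested chains, 22 of 28 were found in the RefSeq promoter table, and the 250 bases upstream of each start were searched on both strands, overlapping matches counted. GGGCGG was present in 14 of the 22 (63.6%) and in 42.3% of 27305 promoters. CCAAT was present in 6 (27.3%) and in 33% of all promoters. TATAAA was present in 4 (18.2%) and in 11.1% of all. Of 11 lower chains with a window, 9 held GGGCGG, 4 held CCAAT and none held TATAAA. Among these, the windows of COL4A1 and COL4A2 share the stretch between their start sites, so its matches were counted for both. The lower chains COL1A1 and COL8A1 had no window, nor had COL6A1, COL5A2, COL14A1 and COL22A1. Of 4 higher chains, 2 held GGGCGG, 1 held CCAAT and 2 held TATAAA. These are matches of letters and describe the windows only.

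The beaded filament chains of type VI collagen, which anchor cells to the matrix around them, did not pass the test. COL6A2 had an FPKM of 44.43, 38.14 and 39.47 in NC and 41.37, 45.0 and 41.23 in OE (log2 fold change 0.05, 95% interval −0.07 to 0.16, adjusted p 0.53). COL6A1 had 24.68, 21.87 and 21.89 in NC and 24.43, 24.49 and 25.1 in OE (0.09, 95% interval −0.01 to 0.20, adjusted p 0.14). For both abundant chains the interval leaves out a change of 1.5-fold. Without NC replicate 1, COL6A1 stood at 0.15 with an adjusted p of 0.043. The ratio of COL6A1 to COL6A2 was 0.555 to 0.573 in NC and 0.544 to 0.609 in OE. COL6A3, the large chain of the assembly, had 12 to 24 counts in NC and 12 to 27 in OE (0.20, 95% interval −0.59 to 1.00).

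COL7A1 (ENSG00000114270.18, chr3:48564073-48595329, minus strand) forms the anchoring fibrils below epithelial basement membranes and was among the 3 highest chains in both groups. Its FPKM was 51.05, 49.17 and 48.35 in NC and 45.98, 48.1 and 45.91 in OE. No OE sample reached the lowest NC sample, yet the log2 fold change was −0.11 (SE 0.05) with an adjusted p of 0.083. With upper quartile scaling it was −0.14 with an adjusted p of 0.023. COL28A1, a chain of peripheral nerve basement membranes, stood at 0.38 (95% interval −0.29 to 1.06, adjusted p 0.34).

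The 15 chains that were not tested included fibrillar and FACIT chains of cartilage and stroma. Their highest counts in any sample were 3 for COL2A1, 3 for COL5A3, 5 for COL1A2 and 1 for COL3A1 among fibrillar chains. For FACIT chains they were 9 for COL9A3, 6 for COL20A1, 3 for COL9A1 and 2 each for COL19A1 and COL21A1. These are chains of cartilage, muscle and other stroma. COL25A1 and COL23A1, the other transmembrane chains, reached 3 and 1 counts. COL6A5 and COL6A6, alternative type VI chains, reached 2 and 3, COL4A6 reached 8 and COL26A1 reached 11. A difference in these genes was not detectable at this depth.

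The proteins that modify, fold, export, cleave and cross-link collagen, together with its receptors and small proteoglycans, were followed in a list of 57 genes, of which 47 were tested. Of these, 28 (59.6%) were lower in OE against 23.7% of all tested genes, 10 (21.3%) were higher against 24.9%, and 9 did not pass. The list was chosen with earlier results of these data known, so these shares are descriptive. The median log2 fold change was −0.34. With a change of more than 2-fold added, 2 genes (4.26%), SEC24D and LUM, were lower against 3.79% of all tested genes, a share near the background.

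Of 15 hydroxylation and glycosylation genes, 10 (66.7%) fell, 3 (20%) rose and 2 did not pass (23.7% and 24.9% over all tested genes). PLOD2, the lysyl hydroxylase that sets pyridinoline cross-links, had an FPKM of 13.01, 12.84 and 11.44 in NC and 8.2, 8.0 and 8.87 in OE (log2 fold change −0.59, adjusted p 4.0e-08). COLGALT2, a collagen galactosyltransferase, rose from 0.23, 0.18 and 0.17 to 0.27, 0.37 and 0.44 (0.88, adjusted p 0.00095), a call that the limma fits did not make (adjusted p 0.070 and 0.090). Neither gene overlapped between the groups.

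Of 12 chaperone and export genes, 7 (58.3%) fell, 3 (25%) rose and 2 did not pass (23.7% and 24.9% over all tested genes). SPARC, a collagen-binding matricellular protein, had an FPKM of 93.1, 87.91 and 92.05 in NC and 52.1, 51.86 and 51.58 in OE (log2 fold change −0.83, adjusted p 1.2e-11). SEC24D, a coat protein of the vesicles that carry procollagen, had 2.41, 2.46 and 2.4 against 0.95, 1.15 and 1.27 (−1.13, adjusted p 1.3e-09). FKBP14, a prolyl isomerase of the endoplasmic reticulum, fell by 0.63 on the log2 scale (adjusted p 0.00014). On the other side, MIA2, which loads large cargo at the exit sites of the endoplasmic reticulum, rose from 2.43, 3.07 and 2.66 to 4.05, 4.28 and 4.9 (0.68, adjusted p 7.6e-07). TMEM38B, a potassium channel of that compartment, rose by a log2 fold change of 0.71 (adjusted p 3.0e-07). Both export genes SEC24D and MIA2 were separated between the groups, in opposite directions.

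Of 8 propeptide cleavage genes, 6 were tested, and 3 (50%) fell, 1 (16.7%) rose and 2 did not pass. Over all tested genes, 23.7% were lower and 24.9% higher. BMP1, the procollagen C-proteinase, had an FPKM of 14.29, 13.58 and 13.39 in NC and 9.62, 9.91 and 9.2 in OE (log2 fold change −0.54, adjusted p 3.3e-08). Its relatives TLL2 and TLL1 stood at −0.97 (adjusted p 5.6e-06) and −0.78 (adjusted p 0.0028), the latter without a call by limma (adjusted p 0.083 and 0.13). Of 6 cross-linking genes, 4 (66.7%) fell and 2 (33.3%) rose. LOXL1, a lysyl oxidase, had 3.23, 3.44 and 3.05 in NC and 1.8, 1.6 and 1.8 in OE (−0.92, adjusted p 1.4e-07).

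Of 10 collagen receptor genes, 6 were tested, and 3 (50%) fell, 1 (16.7%) rose and 2 did not pass. Over all tested genes, 23.7% were lower and 24.9% higher. DDR1, the epithelial collagen receptor kinase, had an FPKM of 7.0, 7.05 and 6.96 in NC and 4.24, 4.42 and 3.73 in OE (log2 fold change −0.78, adjusted p 2.6e-09). Of 6 small leucine-rich proteoglycans, 2 were tested, too few to give a share, and 1 fell. That gene was LUM, a keratan sulfate proteoglycan that binds fibrils, with 1.62, 1.72 and 1.59 in NC and 0.38, 0.41 and 0.52 in OE (−1.94, adjusted p 6.4e-09). LUM is also 1 of the fibroblast markers given above.

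**Figure D5:**
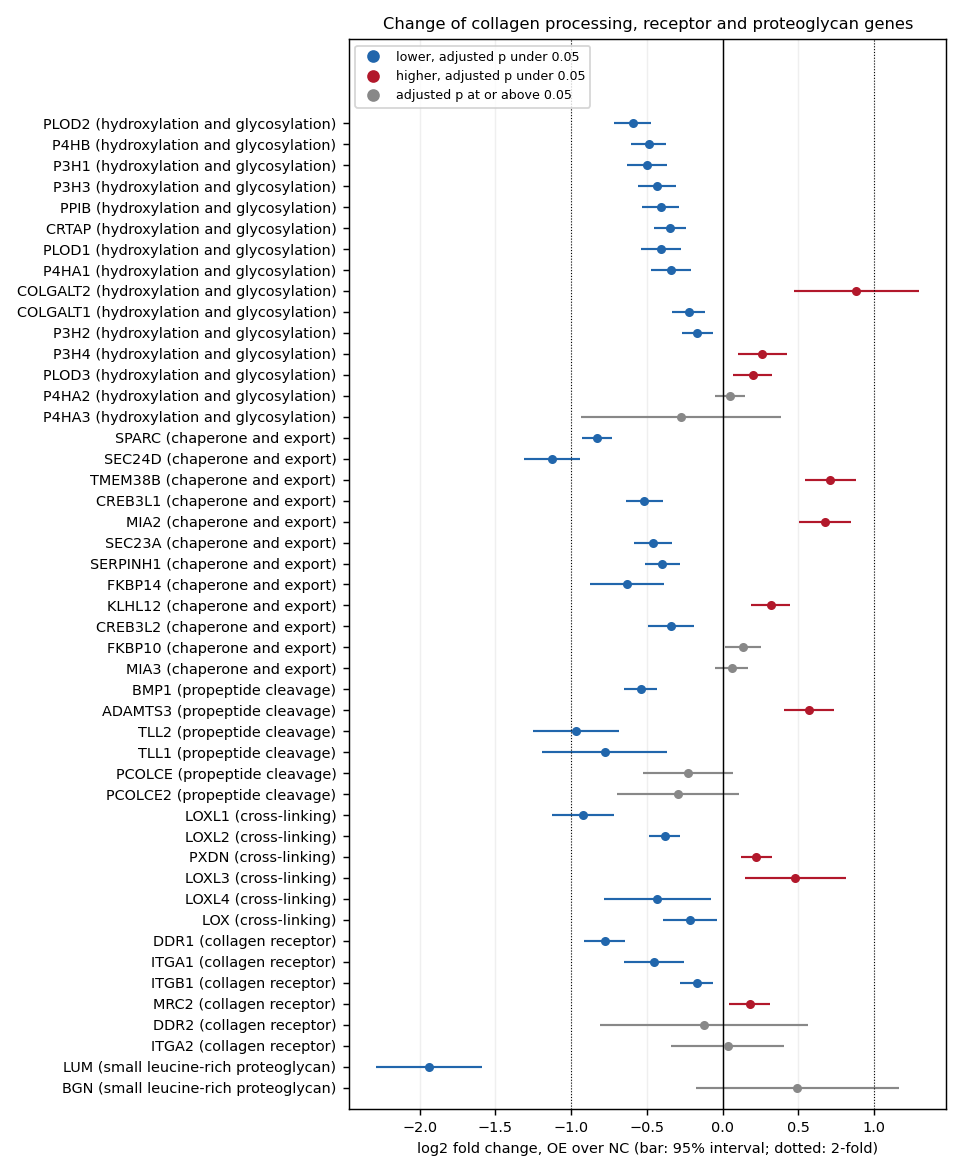
Log2 fold change (OE over NC) of the 47 tested genes for collagen processing, receptors and proteoglycans with 95% intervals, grouped by role. Blue points (28 genes, lower) outnumber red points (10 genes, higher), and LUM lies farthest left at −1.94.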

How the data were processed

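The authors trimmed reads with FASTX-Toolkit, aligned them to GRCh38 with HISAT2 and used uniquely mapped reads to make the deposited gene counts and FPKM values, while the gene annotation and counting tool are not given in the sources used here. The submitters' processing notes also list a mouse build. Groups followed the genotype entries (3 NC, 3 OE samples). The collagen members, classes and lists were chosen with earlier results of these data known. Counts were filtered with filterByExpr, scaled by TMM and tested for all genes with the quasi-likelihood test of edgeR 4.0.16 (R 4.3.3), OE against NC, with Benjamini-Hochberg adjustment over 15878 genes. The adjusted p threshold was 0.05, with a 2-fold change for the stricter calls. The steps were tested on simulated data. FPKM values, deposited with 2 decimals, were used for levels, sums and ratios. Named were every tested chain, and, in the list of processing, receptor and proteoglycan genes, each with a called change above 1.5-fold plus the one with the smallest adjusted p of each sublist. Untested chains are named with their highest count. Alternatives were DESeq2 1.42.0, its size factors, upper quartile scaling, no filter, a mean count of 10, limma 3.58.1 on log2(FPKM + 1) and log2(FPKM + 0.1), a replicate block, and leaving out each sample. Coordinates came from GENCODE 44, which matched 43 of 43 members, and sequences from RefSeq. At 34635770 to 39850802 counts per sample, a chain with fewer than 10 counts gives little precision.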

Additional observations from a re-analysis of the deposited data

How the results depend on the processing

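The count of 13 lower chains was 7 with limma on log2(FPKM + 1) and 7 with log2(FPKM + 0.1), and 9 to 13 when single samples were left out. The count of 5 higher chains was 3 and 2 by these limma fits and 4 to 6 without single samples. The 4 chains lower by more than 2-fold were 1 and 2 by limma and 3 to 4 without single samples. The 2 chains higher by more than 2-fold were 1 with DESeq2, 1 with upper quartile scaling, 0 and 0 by limma, and 0 to 2 without single samples. For the processing, receptor and proteoglycan list, the 28 lower genes were 23 and 23 by limma and 25 to 28 without single samples. The 10 higher genes were 6 and 6 by limma and 8 to 11 without single samples. Adding a constant to FPKM shrinks the fold change of low genes by construction. The abundant COL4A2 also lost its call by limma, at −0.20 in both fits against −0.22 in the main test. The log2 fold change of COL5A2 ranged from −0.013 (without NC replicate 1) to 0.34 and that of COL6A3 from −0.0076 (without NC replicate 3) to 0.51, so both turned direction, and neither passed the test. Over the 41 genes tested by name (28 chains and 13 of the list) and all alternatives, 530 values stayed on their side of the threshold, 38 lost the call and 4 gained it. COL4A4 and COL13A1 lost it with DESeq2. The same-numbered samples showed correlations of −0.0032, −0.066 and −0.054 of their deviations over 15878 genes. These values showed no pairing by number, but 3 samples per group are too few to show that there was none. With a replicate block the counts were 13, 5, 4 and 2 for the chains and 26 and 10 for the list. Depth limits the 15 chains below the filter and the rare tested chains, such as COL4A3, COL4A4, COL6A3 and COL13A1.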
